A study of Ovis aries with 18 samples.

Results

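The genes described here are those whose expression in sheep blastocyst pools did not overlap between sire diets. A gene was a member when its lowest methionine pool lay above its highest control pool, or when its highest methionine pool lay below its lowest control pool, over all 12 pools. Expression was measured as CPM, the reads of a gene divided by all counted reads of its pool and multiplied by 1000000. The members were therefore selected on the measured values themselves, and their differences between diets are given as descriptions without a test. Of 16485 genes considered, 58 were members: 15 were higher and 43 were lower in the methionine pools.

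Polypay rams received a basal control diet or the same diet with 1.5 g of rumen-protected methionine on top (0.22% of the diet) for 77 days, starting at a mean age of 88 days. About 2 months later, 3 control rams (Ram410, Ram423, Ram444) and 3 methionine-treated rams (Ram424, Ram498, Ram511) were bred to 7 superovulated ewes, and blastocysts were flushed 8 days after the rams were introduced. RNA of 12 pools of 5 embryos each was amplified over the whole transcriptome and sequenced, giving 6 control pools (2 per ram) and 6 methionine pools (4 from Ram424, 1 from Ram498 and 1 from Ram511). Sperm DNA of the same 6 rams was examined by reduced representation bisulfite sequencing. The diet was given to the sires alone, and the diet, the ram and the ewes mated to it cannot be told apart within these pools. The counts of a pool summed to between 1017847 (Embryo511_1) and 2398589 (Embryo424_1), which leaves few reads per pool for weakly expressed genes.

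A blastocyst consists of an outer trophectoderm, which forms the placenta, and an inner cell mass, from which the epiblast and the hypoblast arise. At this stage the embryo relies on its own transcripts for energy metabolism, translation and chromatin remodelling, while many receptors, hormones and neural genes are known mainly from later tissues. Methionine is the precursor of the methyl donor S-adenosylmethionine, which is why a diet rich in it has been studied for effects on DNA methylation in sperm.

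The pools were first compared with markers of the labelled cell types. In 10 pools the 10 trophectoderm markers in the table summed to between 5529 and 14705 CPM, and KRT8, a keratin of the trophectoderm and the most abundant of them, was at 3918 to 11704 CPM. The control pool Embryo444_2 had a trophectoderm sum of only 361 CPM with KRT8 at 140 CPM, and the methionine pool Embryo511_1 had 304 CPM with KRT8 at 42.2 CPM. The pluripotency gene POU5F1 was at 17.0 and 39.3 CPM in these pools against 141 to 489 CPM in the others. NANOG, of the same marker list, was not scarcer there, at 11.9 and 7.86 CPM against 4.47 to 16.4 CPM in the others. Cytosolic ribosomal protein genes summed to 2456 CPM in Embryo444_2 and 9730 CPM in Embryo511_1 against 21028 to 37901 CPM elsewhere. Their median Spearman correlation with the other pools, across genes, was 0.582 and 0.600 against 0.820 to 0.857 for the rest. Hypoblast markers were less affected, summing to 971 and 1108 CPM against 1356 to 2026 CPM. Against its list, the hypoblast gene GATA4 was highest in Embryo511_1 (93.3 CPM). In Embryo444_2 (32.4 CPM) GATA4 lay within the 17.9 to 39.9 CPM of the remaining pools. One of these pools belongs to each diet, and trophectoderm markers and POU5F1 were therefore scarce in 1 pool of each group. In bulk samples, fewer cells of a type and less RNA per cell cannot be told apart. Pools Embryo424_1 and Embryo424_2 were the most alike (Spearman 0.955) but differed by more than counting noise and were kept as 2 samples, as labelled. That comparison covers counting error only and not the noise of amplification, so it does not show that they came from separate sets of embryos.

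The 58 members made up 0.352% of the genes considered. The 15 higher members were 0.0910% and the 43 lower members 0.261% of all genes. Of the 924 ways to split 12 pools into 6 and 6, 2 separate a given gene fully. That share is 0.216%, or 35.7 of 16485 genes (17.8 in each direction), if every split were equally likely and every gene independent. Neither holds here, because pools of the same ram have a common sire and genes vary together, so the count was not tested against it. When Embryo444_2 and Embryo511_1 were left out, a setting chosen after the data were seen, 149 genes were fully separated as higher (0.904%) and 169 as lower (1.03%), the 58 members among them by construction. With 10 pools the arithmetic also changes, to 2 of 252 splits, 0.794% or 131 genes. When the pools of a ram were summed, 3 rams against 3, 362 genes were separated as higher (2.20%) and 858 as lower (5.20%), together 1220 genes. At that level 2 of 20 splits separate a gene, 10% or 1648 genes. The count of genes thus lay above this arithmetic over 12 and 10 pools and below it over rams. It also lay below it when the most alike pools, Embryo424_1 and Embryo424_2, were summed, again chosen after the data were seen. This gave 68 genes (0.412%), beside 0.433% of splits or 71.4 genes for 11 samples. The edgeR quasi-likelihood test across all 16485 genes called 0 genes at a false discovery rate (FDR) under 0.05 (0%), with 1303 genes at an unadjusted p under 0.05. The edgeR likelihood-ratio test called 5 genes, DESeq2 called 13, and limma-voom with the ram as a random effect called 0 (352 genes at an unadjusted p under 0.05).

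The gap between the diets was narrow for most members. The margin, defined as the lowest pool of the higher diet divided by the highest pool of the lower diet, had a median of 1.09 in the higher and 1.08 in the lower members, and it was under 1.1 in 34 of the 58. Only UNC93A exceeded 1.5. The 95% counting intervals (exact Poisson) of the 2 nearest pools overlapped in every member, as in UNC93A, where Embryo444_2 (32 reads) had an interval of 18.7 to 38.5 CPM and Embryo498_1 (27 reads) of 11.4 to 25.2 CPM. These intervals cover counting error only, since amplified reads are not independent molecules. The methionine pool nearest to the control pools was Embryo498_1 in 20 members, and the control pool nearest to the methionine pools was Embryo423_2 in 16. The fold between diet means was larger than the margin, with a median of 1.89 in the higher members (1.42 to 3.13) and 2.11 in the lower members (1.37 to 4.78).

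**Figure D1:**
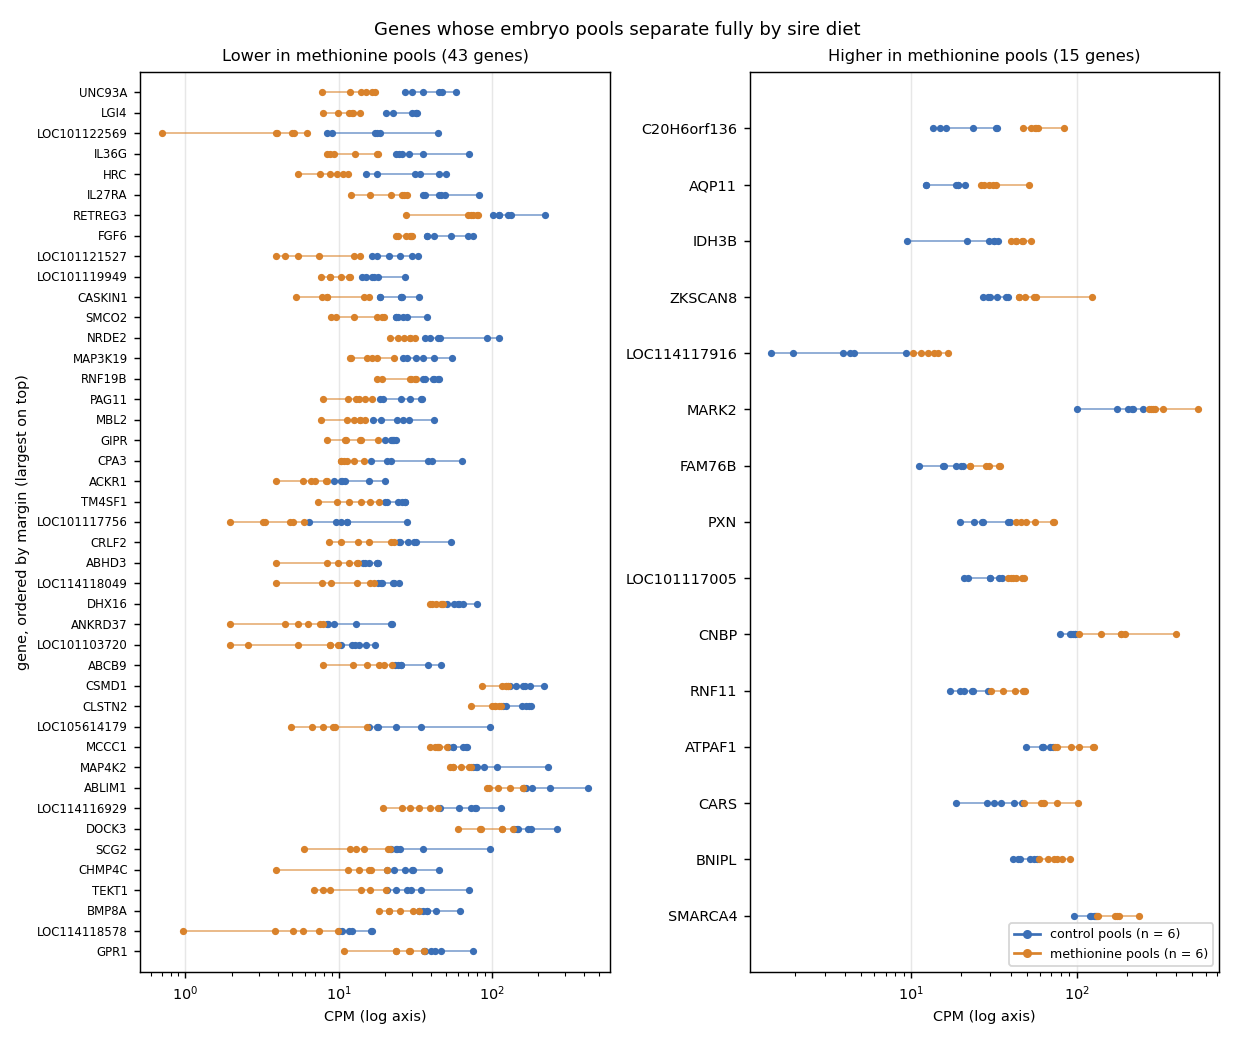
Expression in CPM on a log axis of the 43 genes lower (left) and the 15 genes higher (right) in the methionine pools, with 1 point per pool, control pools in blue and methionine pools in orange (n = 6 each), and lines from the lowest to the highest pool of a diet. The colours do not overlap in any row because the genes were chosen that way, and the gap is widest for UNC93A among the lower genes (margin 1.58) and for C20H6orf136 among the higher genes (margin 1.44). The pool of LOC101122569 with 0 reads is drawn as the leftmost point of its row.

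The members differed in read depth. Every considered gene had at least 15 counts in more than 3 pools, and 12 of the 15 higher members but only 16 of the 43 lower members reached 15 counts in all 12 pools. In each direction, 1 member reached 15 counts in no pool of the lower diet. Some other lower members would not have passed on their methionine pools alone. An example is LOC101122569, which reached 15 counts in 4 control pools and 1 methionine pool. The mean CPM over the 12 pools had a median of 42.8 in the higher members and 23.4 in the lower members, beside 37.8 over all genes. These levels are not corrected for gene length. Of the lower members, 32 lay below the median of all genes, and 17 had a pool with under 10 reads, against 1 of the higher members. Another 10 genes below the filter, of 3492 with any read, were also fully separated, all of them as lower.

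The direction of the members was read against a shift of all genes. With column totals, the median log2 ratio of methionine to control means over all 16485 genes was −0.09, and 9642 genes had the lower mean in the methionine pools. With TMM factors the median was 0.01 and with DESeq2 size factors 0.03. Under both of these scalings, 12 of the higher and 27 of the lower members remained fully separated. In total, TMM gave 23 higher and 32 lower separated genes, so the surplus of lower genes was smaller than with column totals.

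Among the higher members, C20H6orf136 had the widest gap. This gene is the sheep counterpart of an open reading frame of human chromosome 6 and is little characterised. Its control pools had a lowest, median and highest CPM of 13.5, 19.9 and 32.9, and its methionine pools 47.4, 56.4 and 83.8. The means were 22.3 ± 8.77 and 59.2 ± 12.6 CPM (SD, n = 6 each), a 2.66-fold difference, and the edgeR log2 fold change was 1.52 (SE 0.30). Here and below, the SE comes from a model of diet alone that treats pools of the same ram as independent. Because members were selected for their separation, the SE does not measure the precision of a diet effect. Ram410 gave the highest control pools (32.4 and 32.9 CPM), and the separation remained under all 3 scalings.

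Members with roles in energy metabolism and translation were among the higher genes. IDH3B encodes a subunit of the NAD-dependent isocitrate dehydrogenase of the citric acid cycle. Its control pools were at 9.38, 30.4 and 33.6 CPM (lowest, median and highest) and its methionine pools at 40.3, 44.9 and 52.6 CPM, a 1.74-fold difference of means. The lowest value was that of Embryo444_2, while the other control pools were at 21.9 CPM or more. ATPAF1, an assembly factor of the mitochondrial ATP synthase, ran from 49.4 to 71.4 CPM in control pools and from 73.7 to 127 CPM in methionine pools (1.59-fold), but was not fully separated under TMM and DESeq2 scaling. CARS, the cysteinyl-tRNA synthetase that loads cysteine onto its tRNA, ran from 18.8 to 46.7 CPM in control pools and from 48.1 to 101 CPM in methionine pools (2.04-fold). The nearest pools of CARS were Embryo511_1 and Embryo423_2, with a margin of 1.03.

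Another 3 higher members act on chromatin or nucleic acids. SMARCA4 is the ATPase of the SWI/SNF chromatin remodelling complex, ZKSCAN8 is a zinc finger transcription factor, and CNBP is a zinc finger protein that binds single-stranded nucleic acids. CNBP was even among the control pools (79.8, 93.3 and 98.0 CPM) and spread in the methionine pools (104, 185 and 395 CPM), where the highest value was Embryo511_1. ZKSCAN8 was at 27.0, 31.5 and 38.5 CPM in control pools and at 44.6, 51.9 and 124 CPM in methionine pools, again with Embryo511_1 highest. SMARCA4 had the narrowest gap of the higher members (margin 1.009), at 96.5, 125 and 132 CPM against 133, 173 and 239 CPM, and was not fully separated under the other 2 scalings.

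The remaining higher members with known roles concern polarity, adhesion, ubiquitin and transport. MARK2, a kinase of cell polarity and microtubules, took the most reads among the higher members, at 99.7, 210 and 250 CPM in control pools and 274, 292 and 540 CPM in methionine pools. The adaptor PXN (paxillin), which links integrins at focal adhesions to the cytoskeleton, was at 19.6, 26.8 and 39.3 CPM against 42.9, 52.7 and 72.7 CPM. AQP11, an intracellular aquaporin, was at 12.2, 19.0 and 21.1 CPM against 26.5, 30.2 and 51.3 CPM, with the second widest gap (margin 1.26). In MARK2 and AQP11 the methionine pools lay close together except for 1 pool, Embryo511_1 in MARK2 and Embryo498_1 in AQP11, whereas in PXN both Embryo424_4 and Embryo511_1 were high. RNF11, a RING finger protein of ubiquitin ligation, differed 1.89-fold and was named after its values were seen. The little characterised genes FAM76B (16.9 ± 3.54 against 28.5 ± 5.20 CPM) and BNIPL (49.5 ± 6.58 against 74.5 ± 11.0 CPM) were also higher, as were 2 genes known only by LOC identifiers.

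Among the lower members, UNC93A had the widest gap of all 58. It encodes a membrane protein of the UNC93 family with a poorly known function. Its control pools were at 27.3, 40.4 and 58.6 CPM and its methionine pools at 7.76, 14.5 and 17.3 CPM. The means were 40.7 ± 11.8 and 13.7 ± 3.52 CPM (SD, n = 6 each), a 2.96-fold difference, with an edgeR log2 fold change of −1.48 (SE 0.31).

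Several other lower members encode membrane proteins or proteins of membrane compartments. The groups of lower members used here were formed after their values were seen. HRC, a calcium-binding protein of the sarcoplasmic reticulum lumen, had a mean of 32.3 ± 14.1 CPM in control pools and 8.94 ± 2.20 CPM in methionine pools, a 3.61-fold difference (log2 fold change −1.76, SE 0.34). Its methionine pools were at 5.46, 9.27 and 11.5 CPM, and its control pools had a median of 32.9 CPM, with 4 of them between 17.9 and 45.2 CPM, Embryo444_1 below and Embryo423_2 above these. It was the sole member among 27 measured genes of endoplasmic reticulum calcium handling, beside 0.352% of all genes, and nothing is read from a single gene. RETREG3, a receptor for the autophagy of the endoplasmic reticulum, was at 102, 120 and 223 CPM against 27.5, 74.3 and 81.7 CPM. The lowest methionine pool of RETREG3 was Embryo511_1, while the other methionine pools lay between 70.3 and 81.7 CPM. With UNC93A, the lysosomal peptide transporter ABCB9, the membrane-remodelling subunit CHMP4C and the surface protein TM4SF1, this made 6 genes that differed 1.88-fold to 3.61-fold. CHMP4C and TM4SF1 were not fully separated under TMM and DESeq2 scaling.

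Some lower members are known from immune cells and inflammation. IL36G, an epithelial cytokine of the interleukin 1 family, was at 23.6, 27.5 and 71.5 CPM in control pools and at 8.44, 11.0 and 17.9 CPM in methionine pools. IL27RA, a cytokine receptor subunit that pairs with IL6ST, was at 35.7, 45.8 and 82.2 CPM against 12.1, 24.0 and 27.8 CPM. In both genes the highest control pool was Embryo410_2, which stood well above the other control pools. The others were the cytokine receptor CRLF2, the chemokine scavenger ACKR1, the complement lectin MBL2, the mast cell protease CPA3 and the chemerin receptor GPR1. Their differences ranged from 1.83-fold in GPR1 to 2.86-fold in CPA3, and GPR1 had the narrowest gap of all members, with control pools from 36.0 and methionine pools up to 35.9 CPM (margin 1.004). All of these but ACKR1 remained fully separated under the 3 scalings.

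Growth factors and hormone-related genes were also among the lower members. FGF6, a fibroblast growth factor known from muscle, was at 37.7, 48.0 and 75.9 CPM in control pools and at 23.7, 28.3 and 30.3 CPM in methionine pools. The methionine pools of FGF6 were close together (27.5 ± 2.78 CPM), whereas the control pools were spread (52.9 ± 16.8 CPM). BMP8A, a ligand of the transforming growth factor family, had a narrow gap, with control pools from 33.6 and methionine pools up to 33.3 CPM, and was not fully separated under the other 2 scalings. GIPR, the receptor of a gut incretin hormone, was even among control pools (22.3 ± 1.28 CPM) and lower in methionine pools (12.7 ± 3.31 CPM). SCG2, a secretory granule protein, differed 2.58-fold, but its highest control value of 97.2 CPM came from Embryo444_2 while the other control pools were at 21.9 to 35.4 CPM. PAG11, a pregnancy-associated glycoprotein of ruminant trophoblast, was at 27.1 ± 7.07 against 12.9 ± 3.01 CPM, and its reads are uncertain because this family has many near-identical copies.

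Other lower members are known from neural cells. LGI4, a secreted protein required for myelination, had the second widest gap of the lower members, at 20.5, 31.1 and 32.5 CPM in control pools and 7.92, 11.9 and 13.8 CPM in methionine pools. The large membrane protein CSMD1 was at 132 to 219 CPM in control pools (166 ± 30.5) against 85.9 to 127 CPM (117 ± 15.7), and the postsynaptic cadherin CLSTN2 at 118, 162 and 180 CPM against 73.6, 105 and 115 CPM. Both had small folds (1.42 and 1.51), and pools of the same diet differed from each other by about as much. DOCK3, an activator of the GTPase Rac in neurons, was at 140, 159 and 266 CPM against 60.6, 101 and 138 CPM. CASKIN1, a synaptic scaffold, differed 2.46-fold. CLSTN2 and CASKIN1 were not fully separated under TMM and DESeq2 scaling.

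The remaining lower members were spread over single functions. ABLIM1, an actin-binding LIM protein, took the most reads among the lower members, at 162, 175 and 427 CPM against 92.9, 121 and 159 CPM, with the highest value in Embryo444_1. The RNA helicase DHX16 of the spliceosome and the nuclear RNA surveillance factor NRDE2 were lower by 1.41-fold and 2.28-fold. The kinases MAP3K19 and MAP4K2 and the ubiquitin ligase RNF19B differed 1.54-fold to 2.26-fold. MCCC1, a subunit of the carboxylase of leucine breakdown, had the smallest fold of all members (1.37), the phospholipase ABHD3 differed 1.63-fold, and TEKT1, a filament protein of cilia and flagella, 2.80-fold. SMCO2 and ANKRD37 were also lower. Of the genes in this paragraph so far, ABLIM1, DHX16, MAP4K2, RNF19B, MCCC1 and ANKRD37 were not fully separated under TMM and DESeq2 scaling. Among the lower members, 9 are known by LOC identifiers. LOC101122569 had the widest gap of these and the third widest of all 43 lower members, at 8.44, 17.6 and 44.3 CPM in control pools and 0, 4.47 and 6.25 CPM in methionine pools. Its reads were few, with 15 counts reached in only 1 methionine pool. LOC genes made up 20.9% of the lower members and 14.0% of all genes considered.

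Members were also counted in lists of genes fixed for the tissue and the treatment. At the 0.352% of all genes, a list of under 100 genes would rarely hold a member and one of about 300 genes would hold about 1, so these counts say little about a list. None of the 40 measured genes of the methionine and folate cycle was a member, nor any of 19 genes of DNA methylation or 51 of histone and arginine methylation. The median log2 ratio of means was 0.04, −0.05 and 0.00 in these lists, beside −0.09 over all genes, and with TMM it was 0.11, 0.05 and 0.11 beside 0.01, so the sign for DNA methylation and for all genes depended on the scaling. None of 10 trophectoderm, 7 inner cell mass and epiblast, 9 hypoblast, 6 oocyte, 3 cumulus, 3 blood, 7 endometrium or 7 sperm and germ line markers was a member. The same was true of 44 cell cycle, 24 apoptosis, 23 stress response and 29 autophagy genes, and of 71 cytosolic and 71 mitochondrial ribosomal protein, 49 oxidative phosphorylation and 45 proteasome genes. Some of these lists were shifted without a member: the median log2 ratio was 0.31 in oxidative phosphorylation, 0.26 in proteasome, 0.24 in cytosolic ribosomal protein, 0.16 in mitochondrial ribosomal protein and 0.18 in cell cycle genes, and it was above that of all genes under TMM, DESeq2 and tissue-restricted scaling as well. These shifts were not tested. The oxidative phosphorylation genes summed to 6877 to 9694 CPM in the 4 pools of Ram424, while Embryo498_1 (6209 CPM) lay within the 5040 to 6516 CPM of 5 control pools. Embryo511_1 (1669 CPM) and the control pool Embryo444_2 (1099 CPM) were far lower. Cell cycle sums were 3430 to 4055 CPM for Ram424, 3217 in Embryo498_1 and 2936 in Embryo511_1, against 3010 to 3357 in control pools. Proteasome sums were 3767 to 4287, 3144 and 1853 CPM in the same order, against 1779 to 3806. In cytosolic ribosomal protein sums, Embryo424_4 and Embryo498_1 lay below every control pool but Embryo444_2. The highest mitochondrial ribosomal protein sum was that of a control pool, Embryo423_1 (5015 CPM). Families defined by their symbols without a member included 301 solute carriers, 122 RAB GTPase genes and 83 kinesin, dynein or tubulin genes. Among the other families, CARS was 1 of 33 tRNA synthetases, ZKSCAN8 1 of 310 zinc finger genes, DHX16 1 of 51 RNA helicases, and RNF11 and RNF19B 2 of 285 ubiquitin genes.

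Genes that act together with members were listed after the members were known. Of 29 such genes past the filter, 0 were members, and at the 0.352% of all genes a list of this size would rarely hold one. The other subunits of the isocitrate dehydrogenase overlapped widely, with IDH3A at 27.3 to 149 CPM in control pools and 11.8 to 141 CPM in methionine pools. Of 9 other SWI/SNF genes listed, 4 had the higher and 5 the lower mean in the methionine pools. Examples are SMARCB1 (39.1 ± 16.5 against 53.3 ± 9.69 CPM) and the alternative ATPase SMARCA2 (100 ± 37.7 against 77.7 ± 25.3 CPM). IL27, a ligand subunit of the receptor containing IL27RA, was at 10.6 to 67.3 CPM against 8.76 to 23.1 CPM. IL6ST, which pairs with IL27RA, was similar in both diets (61.1 ± 16.1 against 58.4 ± 14.5 CPM). Of the other cytokine and receptor genes listed, IL36A and IL7R had the higher mean in the methionine pools. EBI3, IL36B and IL1RL2 had the lower mean there.

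Transcripts of differentiated tissues were examined beside the lower members. A list of tissue-restricted genes of liver, retina, muscle, brain and endocrine glands was added after the data were seen, and 38 of its genes were in the table. It summed to 2914 to 5726 CPM in control pools (3958 ± 963, SD, n = 6) and to 2187 to 4902 CPM in methionine pools (3232 ± 1060), so the groups overlapped. The 4 pools of Ram424 were at 2187 to 3122 CPM, whereas Embryo498_1 (4035 CPM) and Embryo511_1 (4902 CPM), from the other methionine-treated rams, lay above the control mean. Its most abundant gene was TTN, the giant muscle protein titin, and 0 of its genes were at 0 in all pools. The methionine mean was lower in 33 of 37 measured genes with column totals, 31 with TMM and 30 with DESeq2 factors, with a median log2 ratio of −0.22, −0.14 and −0.13. Over all 16485 genes it was lower in 9642, 8109 and 7775 in the same order, with a median of −0.09, 0.01 and 0.03. The median CPM of the lower members was 27.0 to 36.6 in control pools and 12.5 to 16.0 in methionine pools. When counts were scaled to the sum of the tissue-restricted genes, which moved the median log2 ratio of all genes to 0.24, 61 genes were fully separated as higher and 7 as lower, and 4 members of each direction remained. The part of such transcripts in the surplus of lower genes was not tested. C20H6orf136, ZKSCAN8, PXN, HRC, IL36G and CRLF2 were among the 8 members that were fully separated under all 4 scalings.

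**Figure D2:**
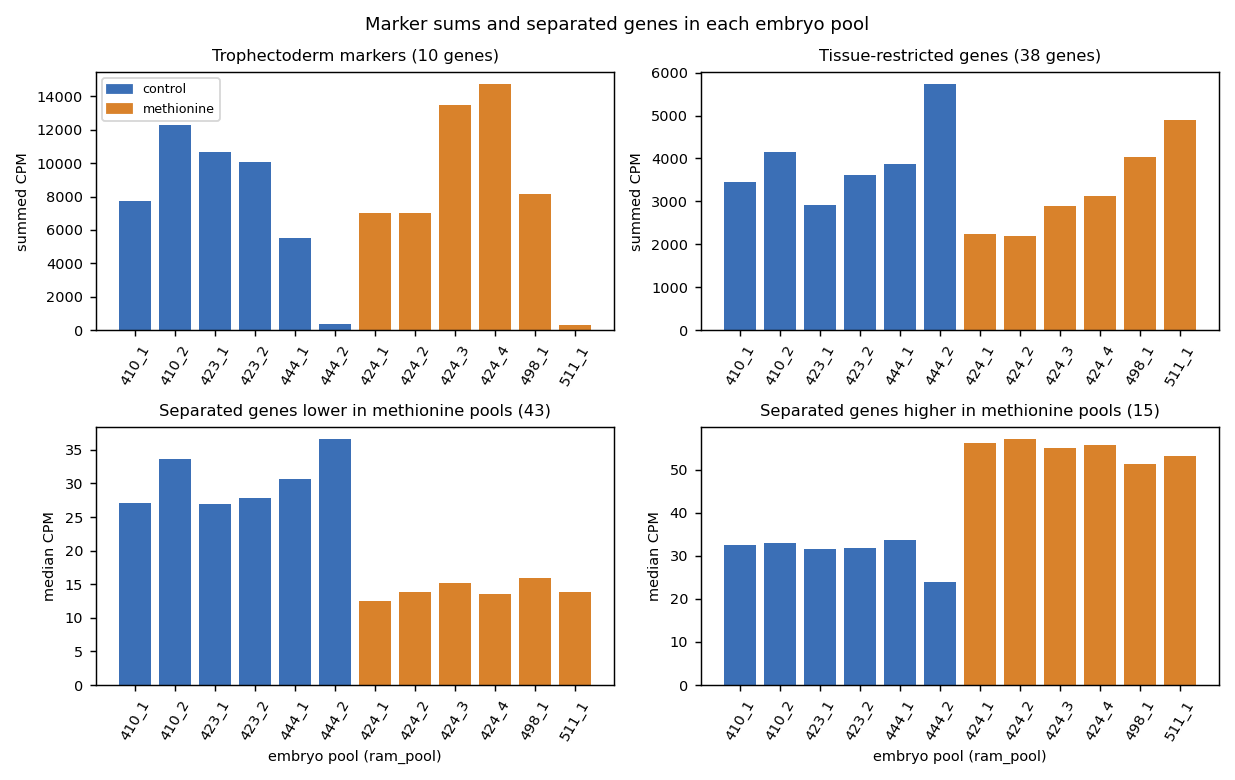
Summed CPM of trophectoderm markers and of tissue-restricted genes (upper row) and the median CPM of the separated genes (lower row) in each embryo pool, with control pools in blue and methionine pools in orange. Embryo444_2 and Embryo511_1 have trophectoderm sums of 361 and 304 CPM, against 5529 to 14705 CPM in the other pools, while the medians of the separated genes differ by diet because the genes were chosen for it.

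CARS was the only member that the annotation of the study's differentially methylated sperm cytosines names. This cytosine lies on the forward strand of chromosome 21 at position 50425765 (Oar_rambouillet_v1.0), in an intron of CARS. It had been chosen by its difference between these rams, so its levels are a description. Control rams had 62.5% (Ram410, 24 reads, 95% Wilson interval 42.7 to 78.8%), 65.7% (Ram423, 102 reads, 56.1 to 74.2%) and 72.2% (Ram444, 54 reads, 59.1 to 82.4%) methylation. Methionine-treated rams had 42.6% (Ram424, 61 reads, 31.0 to 55.1%), 33.3% (Ram498, 90 reads, 24.5 to 43.6%) and 39.0% (Ram511, 141 reads, 31.3 to 47.2%). The group means were 66.8% ± 4.96 and 38.3% ± 4.68 (SD, n = 3 rams each), and the rams did not overlap. Of 18 measured cytosines within 50 bp on both strands, the site included, 17 had all methionine-treated rams below all control rams. Cytosines this close are read on the same fragments. The share of all measured cytosines separated in this way was not determined, so the count is a description of this site alone. The expression of CARS in the pools of these rams was described above, and a relation between both measures was not tested here.

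Positions of members in the genome were compared by gene order only, because the gene table used here was of another assembly (ARS-UI_Ramb_v3.0). By symbol, 52 of 58 members were found in it, all protein coding. C20H6orf136 and DHX16 were direct neighbours and members of opposite direction. The strand setting of the read counting was not stated, so reads where both genes overlap could not be assigned with certainty. ACKR1 and LOC101122569 lay 9 genes apart and were both lower, and no other pair of the members found lay within 10 genes.

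The rule had a sharp threshold that several genes missed by about 1% or less. ING4, a subunit of histone acetyltransferase complexes, GNL3, a nucleolar GTPase, and TAF4, a subunit of the general transcription factor TFIID, came nearest to being higher, with margins of 0.9992, 0.9948 and 0.9900. SCG5, a chaperone of secretory granules, the signalling adaptor SLA and FAM13C came nearest to being lower, with 0.9996, 0.9991 and 0.9973. Just inside the rule were SMARCA4 (1.009), BNIPL (1.020) and CARS (1.030) as higher, and GPR1 (1.004), an uncharacterised LOC gene (1.006) and BMP8A (1.008) as lower. Margins this close to 1 are smaller than the counting error of a pool.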

How the data were processed

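Gene expression was measured by RNA sequencing in 12 pools of 5 embryos and sperm methylation by RRBS in 6 rams, grouped by the diet and ram in their labels. The authors trimmed the RNA reads with Trimmomatic, aligned them to Oar_rambouillet_v1.0 with STAR and deposited raw counts per gene and pool, without stating the strand setting. For RRBS, the authors deposited whole-number counts of methylated and unmethylated reads per cytosine, after alignment with Bismark and removal of duplicates by molecular identifiers.

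CPM were counts divided by the column total times 1000000. Of 20092 genes, 16488 passed the filter (15 or more counts in over 3 pools), and 3 of these were left out by the rule. Fold changes came from edgeR 4.0.16 in R 4.3.3 (TMM, quasi-likelihood test of diet alone, Benjamini-Hochberg over all genes), with DESeq2 1.42.0 and limma 3.58.1 as alternatives. The edgeR fit was also run on simulated counts. The simulated pools were independent and varied less than these data, and the changes were larger than those of most members. That run therefore checks the code and not the performance of the fit in these data. Tables and plots used Python 3.11.15 with pandas 2.3.3, numpy 2.4.6, scipy 1.17.1 and matplotlib 3.10.9.

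Members and lists were chosen with earlier results of these data known. Genes were named by rule: in each direction the 10 largest margins, the 5 highest mean CPM, members of fixed lists, the 3 smallest margins and the 3 genes just outside, with HRC, UNC93A and C20H6orf136. LOC genes were named only among the 3 largest margins. This rule named 26 members, and the other 22 with a symbol were named after their values were seen.

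Alternatives were other scalings, filters and margins, summed pools, left-out pools and rams, and other tests. Promoter methylation, cytosines near other members, and gene length and sequence were not analysed here, since no annotation of the build was used.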

Additional observations from a re-analysis of the deposited data

Results flagged for a closer look

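In 118 groups of 6 pools, taken from named members, marker genes and sums per pool, 29 had 1 pool far from the other 5 relative to the range of the group. Chance sets apart about 1 in 20 independent groups, but these groups share pools and most belong to genes selected on the same values, so the number was not tested against that rate. Of the 27 gene values set apart, 6 were in Embryo444_2 and 7 in Embryo511_1, the pools with few trophectoderm transcripts.

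Embryo511_1 stood apart among the methionine pools in ZKSCAN8 (124 CPM), MARK2 (540 CPM), CNBP (395 CPM) and RETREG3 (27.5 CPM), in each case farther from the control pools. It also stood apart in TNP1, a nuclear protein of spermatids, at 999 CPM, where the remaining methionine pools had 1.28 to 6.25 CPM, and in the egg coat genes ZP2 (203 CPM) and ZP3 (407 CPM). The oocyte list summed to 733 CPM in Embryo511_1 against 106 to 168 CPM in the other pools, of which ZP2 and ZP3 made up most. Of its 8 genes, 4 were highest in this pool, whereas ZAR1 (0 CPM) and NPM2 (0.982 CPM) were lowest there. TNP2, another spermatid gene, was at 0 CPM in this pool. The summed germ line and sperm list was 1241 CPM in Embryo511_1, 713 CPM in Embryo444_2 and 118 to 228 CPM elsewhere.

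Embryo444_2 stood apart among the control pools in SMCO2 (37.5 CPM), CRLF2 (54.5 CPM), MAP4K2 (233 CPM), SCG2 (97.2 CPM) and GPR1 (75.9 CPM), all farther from the methionine pools, and in SPATA18 (475 CPM). Its sums of inner cell mass and epiblast markers (303 CPM) and of cytosolic ribosomal proteins (2456 CPM) were also far below those of the other control pools.

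Among the other control pools, Embryo410_1 stood apart in SMARCA4 (96.5 CPM), RETREG3 (223 CPM) and DOCK3 (266 CPM), Embryo410_2 in IL36G (71.5 CPM) and IL27RA (82.2 CPM), and Embryo444_1 in LOC101122569 (44.3 CPM), ABLIM1 (427 CPM) and BMP8A (62.1 CPM). Embryo423_1 stood apart in CNBP (79.8 CPM) and Embryo423_2 in TEKT1 (71.4 CPM). Among the other methionine pools, this applied to Embryo424_1 in C20H6orf136 (83.8 CPM), Embryo498_1 in AQP11 (51.3 CPM), Embryo424_2 in CSMD1 (85.9 CPM) and Embryo424_3 in CLSTN2 (73.6 CPM). In these genes the pool lay on the side away from the other diet, which the choice of members with no overlap largely fixes.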

How the results depend on the processing

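The count of 58 separated genes stayed within 1.5 times under TMM (55) and DESeq2 (57) scaling, without a filter (68) and with 15 counts in 6 or more pools (53). Its split did not: the 15 higher genes became 23 with TMM and 25 with DESeq2 factors. With 15 counts in all 12 pools, 28 genes were separated (12 higher, 16 lower), and with a margin of 1.5, 1 gene (0 higher, 1 lower). Summing the pools of a ram gave 1220 genes (7.40%; 362 higher, 858 lower), below the 10% of splits that separate 3 rams from 3. Summing the 4 pools of Ram424 gave 227 (1.38%; 98 higher, 129 lower), below the 2.38% of splits of 6 against 3. Fewer samples have to agree in both. The same holds when pools are left out, and with 11 pools 0.433% of splits separate a gene (71.4 genes). Leaving out 1 pool gave 66 to 225 genes (0.400% to 1.36%), with 19 to 103 higher and 47 to 141 lower. The count was 66 without Embryo424_1 and 69 without Embryo424_2, both below that share of splits. Without a control pool it was 106 (Embryo410_1), 98 (Embryo410_2), 129 (Embryo423_1), 93 (Embryo423_2), 92 (Embryo444_1) and 105 (Embryo444_2). Without another methionine pool it was 103 (Embryo424_3), 99 (Embryo424_4), 181 (Embryo498_1) and 225 (Embryo511_1). Leaving out 1 ram gave 169 to 1121 genes (1.03% to 6.80%), with 40 to 659 higher and 103 to 462 lower. The most were found without Ram424, where only Embryo498_1 and Embryo511_1 remain as methionine pools and fewest samples have to agree. In that setting the surplus turned, with 659 genes higher and 462 lower. Ram498 and Ram511 have 1 pool each, so leaving out either ram is the setting of 11 pools with its 0.433% of splits. For the other rams the share of splits was not computed, so their counts are not read as more separation.

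Chosen after seeing the data, leaving out Embryo444_2 and Embryo511_1 gave 318 genes (149 higher, 169 lower), and scaling to tissue-restricted genes gave 61 higher and 7 lower; the cause of the latter was not tested. Summing Embryo424_1 and Embryo424_2 gave 68 (0.412%), below the 0.433% of splits that separate 11 samples.

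The edgeR quasi-likelihood count of 0 became 5 with the likelihood-ratio test (3 of them members) and 13 with DESeq2 (9 members). It became 1 without the 2 pools that stood apart, and the cause was not tested. Members were chosen on the same pools and the same contrast, so their presence among called genes follows from that choice. The count of called genes was 0 in the other alternatives, with 942 to 1949 genes at an unadjusted p under 0.05 when 1 pool was left out. The median log2 fold change was 1.01 in the higher and −0.93 in the lower members. The first moved to 0.74 without both pools. The signs are fixed by the choice of members.

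No paired analysis was possible because the labels number pools within a ram and the diets were given to different rams. Promoter methylation and the cytosines near members, with their alternatives, were not run for lack of an annotation of the build. Depth limits members with few reads: 18 had a pool with under 10.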
